A study of Capra hircus with 36 samples.

Results

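Cardiac muscle and skeletal muscle of the goat were compared by small RNA sequencing. The libraries were chosen by their tissue label, heart or muscle, and make up 12 of the 36 libraries of the series, 6 of heart and 6 of muscle. Goats of the Tibetan Goat population lived at 3000 m (high altitude) and goats of the Chuandong White Goat population at 600 m (low altitude). The animals were adult females with an age label of over 3 years, and 3 goats of each population gave 1 heart and 1 muscle library each, so each tissue has 3 libraries at each altitude. The muscle was the longissimus, a back muscle. Altitude and population cannot be told apart in this design. The total count of a library was 10779449 to 12390408 in heart and 12234350 to 14407748 in muscle, at which 3 counts equal 0.208 to 0.278 CPM (the count scaled to a common library total).

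Both tissues are striated muscle, built on the same contractile unit, but the heart beats without rest and runs on oxidative metabolism, while a skeletal muscle such as the longissimus contracts on nervous command and mixes slow and fast fibres. MicroRNAs (miRNAs) are short RNAs that lower the output of messenger RNAs, and several of them, called myomiRs, are made almost only in striated muscle. Some myomiRs sit inside genes for myosin heavy chains, and miR-206 is known as a miRNA of skeletal muscle and not of heart.

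The tissue labels were checked against the myomiRs. Here the share of the library total is given as plain CPM, without scaling. miR-133a-3p had 89123 to 186399 CPM in the 6 heart libraries and 178996 to 276291 CPM in the 6 muscle libraries, against 79.9 to 4956 CPM in the 24 libraries of other tissues. miR-208b-3p, which lies in a myosin heavy chain gene in mammals, had 10283 to 16711 CPM in heart, 801 to 3445 CPM in muscle and at most 106 CPM in the other tissues. miR-206-3p had at most 8.0 CPM in heart and 45.9 to 7759 CPM in muscle. Every library labelled muscle had more miR-206-3p than every library labelled heart.

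All other levels below are CPM scaled by TMM, a method that sets the library sizes so that most miRNAs do not differ. TMM moved the libraries apart, with a factor of 0.543 in muscle high-altitude replicate 1 and 0.754 in muscle high-altitude replicate 3, against 0.915 to 1.23 in the other 10 libraries. Of 930 miRNAs with at least 3 counts in at least 1 of the 12 libraries, 86 (9.25%) were differentially expressed (DE), meaning a Benjamini-Hochberg adjusted p under 0.05 in the edgeR quasi-likelihood test with altitude as a block, together with a log2 fold change of 1.5 or more in either direction. Among them 39 (4.19%) were higher in heart and 47 (5.05%) were higher in muscle. Of the 47, 8 were at 0 in all 6 heart libraries, and of the 39, 4 were at 0 in all 6 muscle libraries. These passed the filter through 1 tissue only. Against a floor of 3 counts per library, the 8 were at least 1.6-fold to 26.9-fold higher in muscle. With the goat as a replicate block 76 were DE, with 17 of the 86 lost and 7 gained. Without a minimum fold change 121 (13.0%) passed, 61 (6.56%) higher in heart and 60 (6.45%) higher in muscle. The 6 heart libraries lay wholly above the 6 muscle libraries for 49 miRNAs (5.27%) and wholly below them for 53 (5.70%). With library size alone in place of TMM, the fold changes of heart over muscle moved by a median of 0.29 on the log2 scale, and 65 miRNAs were then called higher in heart and 43 higher in muscle. That moved the part of the calls that was higher in heart from 45.3% to 60.2%, so the balance of the directions depends on the scaling. The corresponding shift was -0.10 with RLE size factors and -0.11 with DESeq2. In bulk tissue, fewer cells of a type and less RNA per cell cannot be told apart, and this holds for every difference below.

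**Figure D1:**
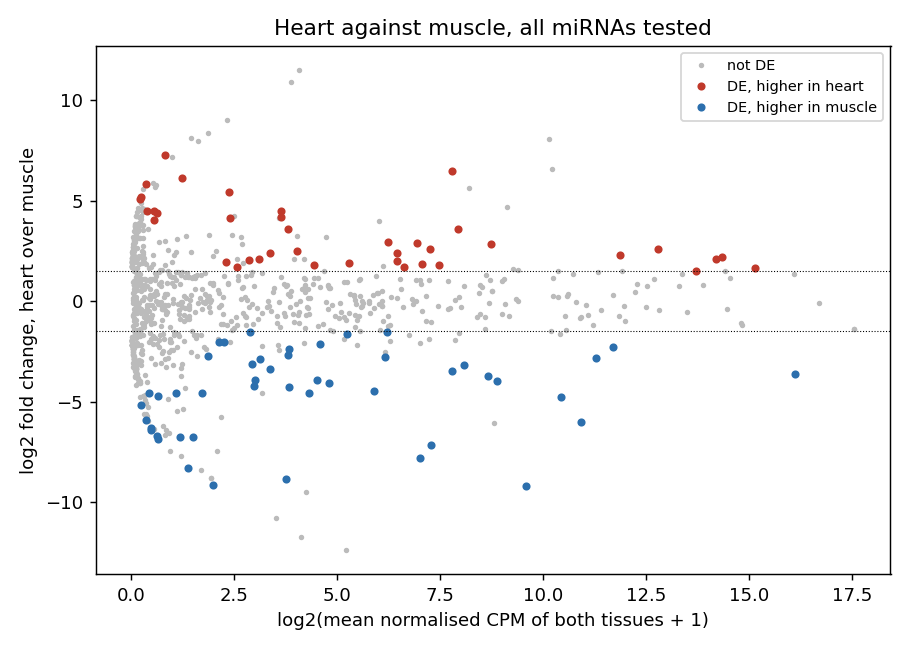
Log2 fold change of heart over muscle (vertical axis) against the log2 of the mean TMM-scaled CPM of both tissues plus 1 (horizontal axis) for the 930 miRNAs tested, each a point, with dotted lines at the minimum fold change. The 39 DE miRNAs higher in heart and the 47 higher in muscle are coloured.

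The libraries of muscle were more dominated by their most abundant miRNAs. The 10 most abundant miRNAs took 70.7% to 76.2% of a heart library (median 73.0%) and 77.7% to 86.4% of a muscle library (median 84.4%). The difference of heart minus muscle was -10.2 percentage points (exact permutation of the tissue labels within altitude, two-sided p = 0.005, the smallest that the 400 arrangements can give, adjusted p = 0.0075 over 3 measures), and -7.77 points when miRNAs with equal counts were kept once. The muscle library with the lowest share, low-altitude replicate 3 at 77.7%, still lay above every heart library. The single most abundant miRNA took 11.1% to 18.9% of a heart library and 20.4% to 27.6% of a muscle library, a difference of -8.38 points, which became -13.7 points when equal counts were kept once. For the -8.38 points, the exact permutation within altitude gave the same p and adjusted p as for the -10.2 points. By exact permutation of tissue labels within each goat, the -10.2 and -8.38 points each had p = 0.0312 (adjusted p = 0.0469). The 64 arrangements of that exact permutation can give no smaller p. The number of miRNAs with at least 1 CPM was 374 to 396 in heart and 359 to 411 in muscle, which overlap, and its difference of 5.0 did not pass (exact permutation p = 0.66, adjusted p = 0.66).

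The most abundant myomiR, miR-133a-3p, had a larger median share in muscle than in heart. So did miR-10b-5p, with 0.707% to 1.8% of a heart library and 4.18% to 20.4% of a muscle library. The part of either in this dominance was not tested. miR-133a-3p and miR-133b-5p were listed with equal counts in all 12 libraries, so their reads cannot be told apart and the same counts enter the totals under both names. Together they took 17.8% to 37.3% of a heart library and 35.8% to 55.3% of a muscle library. For miR-133a-3p, heart libraries had 72321 to 163466 CPM with a median of 108838, and muscle libraries had 183324 to 436574 CPM with a median of 259127. No heart library reached the lowest muscle library after TMM scaling, while by library size alone the highest heart library (186399 CPM) passed the lowest muscle library (178996 CPM). Its log2 fold change of heart over muscle was -1.36 (SE 0.28, adjusted p = 0.00576), which is under the minimum fold change for DE. It was called DE with stricter filters on low miRNAs (-1.54 with filterByExpr, -1.58 with a mean of at least 10 CPM) and with both arms summed (-1.62).

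The other myomiRs were described by a list of 14 arms of miR-1, miR-133, miR-206, miR-208, miR-499 and miR-486, all of them tested. Of these 14, 2 were DE and higher in heart and 1 was DE and higher in muscle, beside 4.19% and 5.05% of all miRNAs tested, and the median log2 fold change was -0.22, beside -0.08 over all 930, while with library size alone these became 0.13 and 0.24. miR-206-3p, the skeletal muscle member, had 0 to 6.49 CPM in heart (median 2.0) and 41.0 to 6387 CPM in muscle (median 606). Its muscle level ranged widely, with 41.0 CPM in high-altitude replicate 2 and 6387 CPM in low-altitude replicate 3, yet every muscle library lay above every heart library. The log2 fold change was -9.19 (SE 2.02, adjusted p = 0.00924), with 2 heart libraries at 0.

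For the 2 myomiRs that are hosted by slow myosin genes, the more abundant arm was higher in heart. For miR-208b-3p, the heart libraries had 13561, 9585 and 9926 CPM at high altitude and 10177, 13283 and 14156 CPM at low altitude, while the muscle libraries had 5117, 784 and 4568 CPM at high altitude and 1549, 872 and 843 CPM at low altitude. Heart was higher in all libraries, and among the muscle libraries high-altitude replicates 1 and 3 stood above the others. The log2 fold change was 2.59 (SE 0.51, adjusted p = 0.00481). miR-208b-5p, the other arm, had 1.12 to 5.4 CPM in heart and 0.42 to 2.94 CPM in muscle. These overlapped, and it was not DE (log2 fold change 1.16, adjusted p = 0.346). miR-499-5p, which lies inside MYH7B, a myosin heavy chain gene, in the RefSeq annotation (assembly ARS1.2), had 4343 to 7109 CPM in heart (median 6282) and 639 to 3696 CPM in muscle (median 832). The groups did not overlap, and the log2 fold change was 2.32 (SE 0.45, adjusted p = 0.00433). For the opposite arm, miR-499-3p, with 54.3 to 191 CPM in heart and 12.2 to 91.3 CPM in muscle, the groups overlapped and it was not DE (log2 fold change 1.75, adjusted p = 0.101). It was called DE with library size alone (2.17, without overlap), DESeq2 (1.67), arms summed (2.08), limma voom (1.75) and without muscle high-altitude replicate 1 (2.07). miR-208a-3p, hosted in mammals by the gene of the heart's fast myosin, was split by altitude within heart and is described with altitude below.

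miR-1-3p, the myomiR made from the same transcript as miR-133a, did not differ in a stable way. Heart libraries had 335 to 18954 CPM (median 1445) and muscle libraries 1140 to 47720 CPM (median 1716), and the ranges overlapped. Low-altitude replicate 3 was the highest library in both tissues, with 18954 CPM in heart and 47720 CPM in muscle. The log2 fold change was -0.42 (SE 1.13, adjusted p = 0.825), and without that muscle library it was 1.30. miR-486-5p, a miRNA of muscle and red cells, had 10143 to 45116 CPM in heart and 11308 to 38668 CPM in muscle, with a log2 fold change of -0.37 (SE 0.34, adjusted p = 0.448).

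**Figure D2:**
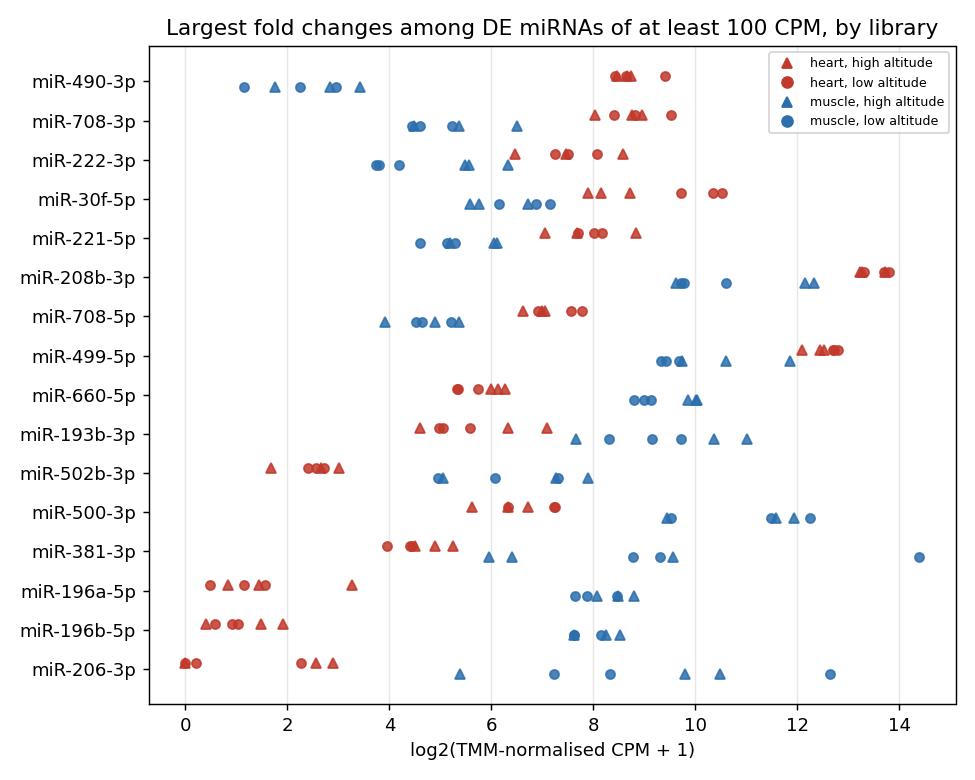
TMM-scaled CPM of the 8 DE miRNAs in each direction with the largest fold changes among those that averaged 100 CPM or more in the higher tissue (horizontal axis, log2 of CPM plus 1), in each of the 12 libraries (heart in red, muscle in blue; triangles high altitude, circles low altitude). For the 16 miRNAs shown, the heart points and the muscle points do not overlap, which was part of the rule that chose them.

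Of the DE miRNAs that averaged 100 CPM or more in heart, miR-490-3p had the largest difference toward heart. It lies within CHRM2, the gene of the muscarinic receptor through which the vagus nerve slows the heart. Its level was 402, 429 and 353 CPM in high-altitude hearts and 342, 673 and 400 CPM in low-altitude hearts, against 9.72, 2.38 and 6.12 CPM in high-altitude muscles and 3.75, 1.21 and 6.73 CPM in low-altitude muscles. Every heart library was far above every muscle library. The log2 fold change was 6.47 (SE 0.57, adjusted p = 1.42e-05). Its other arm, miR-490-5p, was much lower and moved the same way, with a mean of 8.11 CPM in heart and 0.26 CPM in muscle (log2 fold change 5.43, SE 0.92, adjusted p = 0.00191).

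Both arms of miR-708 and of miR-582 were likewise higher in heart. miR-708-3p, whose gene neighbours TENM4, had 261 to 730 CPM in heart (median 442) and 20.8 to 89.3 CPM in muscle (median 29.8), with a log2 fold change of 3.61 (SE 0.46, adjusted p = 0.000268). miR-708-5p had 97.3 to 219 CPM in heart and 14.1 to 40.3 CPM in muscle (log2 fold change 2.39, SE 0.33, adjusted p = 0.000466). The heart libraries lay above the muscle libraries for both arms. miR-582-3p and miR-582-5p, which lie in PDE4D, the gene of a phosphodiesterase that degrades cyclic AMP, had log2 fold changes of 4.47 and 4.18 and were named after their values were seen.

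The pair miR-221 and miR-222, made from neighbouring genes on the X chromosome and studied for their action on blood vessels and cell growth, was tested as 5 arms. Of these, 2 were DE, both higher in heart, beside 4.19% of all miRNAs tested, and the median log2 fold change was 2.88, or 2.61 with miRNAs at 0 in a tissue set to the bound that 3 counts give. Of the 5 arms, miR-221-3p and a second entry named miR-222-3p had counts only in heart low-altitude replicate 2. The main miR-222-3p entry had 87.3 to 384 CPM in heart (median 177) and 12.4 to 79.6 CPM in muscle (median 30.3), without overlap (log2 fold change 2.88, SE 0.50, adjusted p = 0.00215). miR-221-5p had 132 to 459 CPM in heart (median 233) and 23.3 to 67.8 CPM in muscle (median 36.7), also without overlap (log2 fold change 2.61, SE 0.37, adjusted p = 0.00054). High-altitude replicate 2 was the highest heart library for both.

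The miR-30 family, abundant in heart and known to act on connective tissue factors, was tested as 12 arms. Of these, 2 were DE and higher in heart and 1 was DE and higher in muscle, beside 4.19% and 5.05% of all miRNAs tested. Without a minimum fold change 5 passed toward heart and 2 toward muscle, beside 6.56% and 6.45%. The median log2 fold change was 0.99, and it stayed above that of all miRNAs tested under the other scalings (0.88 with RLE, 1.38 with library size alone). The summed level of the family was 74487 to 106798 CPM in heart and 23092 to 50417 CPM in muscle, a sum that includes 3 arms combining 0 with at least 100 counts, among them miR-30c-5p at 0 in 2 hearts and 5 muscles. miR-30f-5p, which neighbours miR-30a, had 237 to 421 CPM in high-altitude hearts and 838 to 1471 CPM in low-altitude hearts, against 47.2 to 141 CPM in muscle (log2 fold change 2.83, SE 0.38, adjusted p = 0.000391). The low-altitude hearts were the higher ones for this miRNA. miR-30a-5p had a mean of 30158 CPM in heart and 7226 CPM in muscle (log2 fold change 2.13, SE 0.32, adjusted p = 0.000685). miR-30e-5p, the most abundant member, did not overlap between the tissues and had a log2 fold change of 1.18 (adjusted p = 0.00994), under the minimum for DE, which it passed with library size alone (1.57).

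miR-27b-3p was the most abundant of 8 tested arms of the miR-23, miR-24 and miR-27 clusters, which act in vessel and heart growth. Its level was 47267 to 59464 CPM in heart (median 54999) and 8093 to 40876 CPM in muscle (median 11693). The muscle libraries of high-altitude replicates 1 and 3 came closest to heart. It was the only DE member of the 8, beside 9.25% of all miRNAs tested, with a log2 fold change of 1.67 (SE 0.37, adjusted p = 0.00956), and it lost the call without muscle high-altitude replicate 2 (1.46), with a mean of at least 10 CPM required (1.48) and with both arms summed (1.43). Of 6 tested arms of the miR-181 family, both arms of miR-181c were DE and higher in heart, beside 4.19% of all miRNAs tested, at means of 278 against 78.7 CPM for miR-181c-5p and 26.1 against 4.62 CPM for miR-181c-3p, while the far more abundant miR-181a-5p was not (log2 fold change 0.74, adjusted p = 0.0632).

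A first block of miRNAs higher in muscle was the one at the HOX loci, the gene clusters that lay down position along the body axis. miR-10a, miR-10b, miR-196a and miR-196b lie next to a HOX gene in the RefSeq annotation, miR-10b beside HOXD8 and HOXD3, miR-10a beside HOXB5 and HOXB3, miR-196a beside HOXB13 and HOXB9, and miR-196b beside HOXA9 and HOXA10. All 8 arms of these 4 genes were tested, and all 8 were DE and higher in muscle without overlap, beside 5.05% of all miRNAs tested. Of the 8, miR-196a-3p had at most 2 counts in a heart library and miR-196b-3p at most 1. Both passed the filter of 3 counts through muscle alone, where they had 27 to 51 and 17 to 49 counts. This group of 8 arms was put together by position after the values were seen. The list that holds it with the miR-99, miR-100 and miR-125 groups had 18 arms tested. Of these 8 were DE toward muscle and 2 toward heart, beside 5.05% and 4.19% of all miRNAs tested.

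miR-10b-5p, the most abundant of them, had 14583, 8632 and 15136 CPM in high-altitude hearts and 7956, 6794 and 9651 CPM in low-altitude hearts, against 222056, 37380 and 270234 CPM in high-altitude muscles and 121554, 82434 and 53780 CPM in low-altitude muscles. The lowest muscle library, high-altitude replicate 2, still exceeded the highest heart library. The log2 fold change was -3.59 (SE 0.45, adjusted p = 0.00022). miR-196b-5p had 0.332 to 2.76 CPM in heart (median 0.973) and 195 to 366 CPM in muscle (median 240), with a log2 fold change of -7.78 (SE 0.58, adjusted p = 5.69e-06). miR-196a-5p had 0.405 to 8.7 CPM in heart and 199 to 445 CPM in muscle (log2 fold change -7.17, SE 0.74, adjusted p = 5.23e-05). Heart high-altitude replicate 3 was the highest heart library for miR-196a-5p, at 8.7 CPM, and for both miRNAs every muscle library lay far above every heart library.

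In the same list, miR-100-5p and miR-125a-5p went the other way and were DE toward heart. miR-100-5p had 11803, 5522 and 14825 CPM in high-altitude hearts and 80928, 78206 and 22442 CPM in low-altitude hearts, against 837 to 11012 CPM in muscle (log2 fold change 2.22, SE 0.59, adjusted p = 0.0265). miR-125a-5p had 10832, 5367 and 9972 CPM in high-altitude hearts and 41093, 38159 and 19501 CPM in low-altitude hearts, against 1705 to 9895 CPM in muscle (log2 fold change 1.51, SE 0.43, adjusted p = 0.0364). For both, heart low-altitude replicates 1 and 2 stood far above the other hearts, and the high-altitude hearts overlapped with muscle.

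A second block higher in muscle lay on the X chromosome inside CLCN5, the gene of a chloride and proton exchanger. The RefSeq annotation places miR-500, miR-502a, miR-502b, miR-362 and miR-660 there, next to USP27X. Of their 10 arms, 9 were tested and all 9 were DE toward muscle, beside 5.05% of all miRNAs tested, and miR-502b-5p was at 0 in all 12 libraries. Of the 9, miR-502a-5p and miR-502a-3p were at 0 in every heart library, and miR-660-3p had at most 2 counts there. These arms passed the filter of 3 counts through muscle alone. miR-502a-5p, with 4 to 17 counts in muscle, was at least 3.7-fold higher there against a floor of 3 counts per library. The median log2 fold change of the 9 was -4.58, or -4.48 with arms at 0 in heart set to the bound that 3 counts give. The group was noticed after the values were seen. miR-660-5p had the lowest p of all miRNAs tested, with 39.0 to 75.9 CPM in heart (median 57.5) and 446 to 1044 CPM in muscle (median 747), at a log2 fold change of -3.69 (SE 0.23, adjusted p = 1.82e-06). High-altitude muscles had 1044, 1036 and 932 CPM and low-altitude muscles 561, 446 and 507 CPM, but by library size alone the muscle libraries of the altitudes overlapped (566 to 1160 and 409 to 616 CPM), and the interaction with altitude did not pass (adjusted p = 1.0).

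miR-500-3p was the most abundant member, with 48.1 to 151 CPM in heart (median 91.9) and 697 to 4851 CPM in muscle (median 2960). The muscle libraries split, with high-altitude replicate 2 at 697 CPM and low-altitude replicate 3 at 730 CPM well below the other 4. The log2 fold change was -4.76 (SE 0.57, adjusted p = 0.000189). miR-502a-3p was at 0 in all 6 heart libraries and had 17 to 174 counts in muscle, which is at least 26.9-fold higher in muscle against a floor of 3 counts per library. The summed level of the 10 arms was 122 to 249 CPM in heart and 1374 to 5973 CPM in muscle. miR-188 and miR-532, known neighbours of these miRNAs in mammals, are on an unplaced sequence in this annotation, and both arms of each were DE in the same direction, with log2 fold changes from -4.27 to -3.45.

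**Figure D3:**
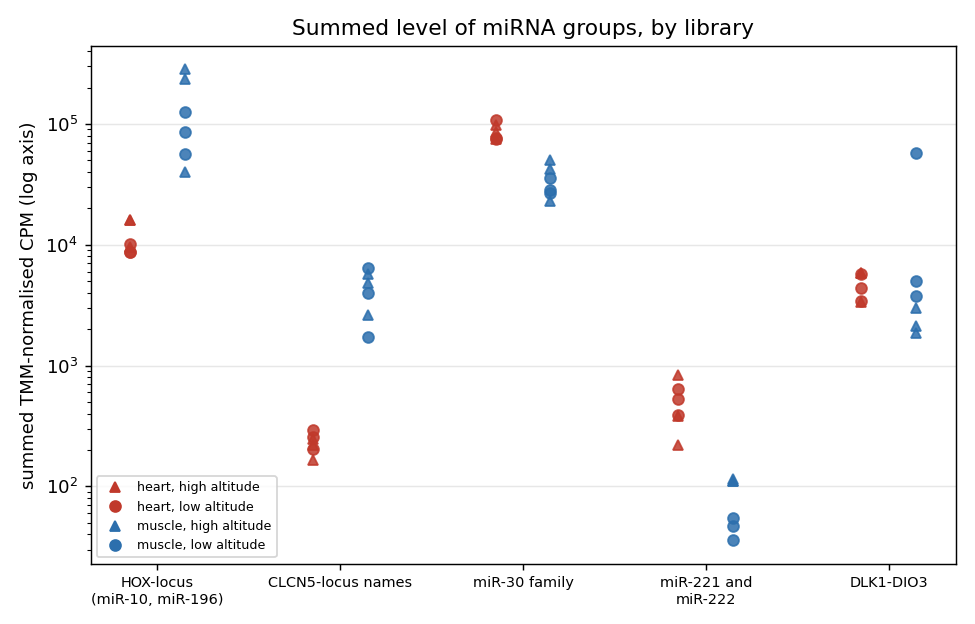
Summed TMM-scaled CPM (log axis) of 5 groups of miRNAs in each of the 12 libraries (heart in red, muscle in blue; triangles high altitude, circles low altitude). Muscle lies above heart for the HOX-locus group and for the CLCN5-locus names, which here also take in miR-188 and miR-532 (14 arms). Heart lies above muscle for the miR-30 family and for miR-221 and miR-222. Low-altitude muscle replicate 3 stands alone at 56947 CPM for the DLK1-DIO3 group.

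Other miRNAs higher in muscle included miR-193b-3p, a miRNA of brown fat and muscle development. It had 23.3 to 135 CPM in heart (median 39.7) and 200 to 2080 CPM in muscle (median 702), at a log2 fold change of -3.94 (SE 0.59, adjusted p = 0.000776). miR-365-3p, its usual partner in a shared transcript, had a log2 fold change of -3.15 (SE 0.47, adjusted p = 0.000685) and was named after its values were seen. miR-128-3p, best known from neurons, lies in R3HDM1 and had 457 to 672 CPM in heart (median 618) and 1755 to 8978 CPM in muscle (median 4020), without overlap (log2 fold change -2.84, SE 0.34, adjusted p = 0.000189). Muscle high-altitude replicate 2 was its highest library. miR-378-3p, which lies in PPARGC1B, the gene of a regulator of mitochondrial metabolism, had 14410 to 25268 CPM in heart and 32498 to 53532 CPM in muscle (log2 fold change -1.08, SE 0.21, adjusted p = 0.00433), under the minimum for DE. The tissues did not overlap after TMM scaling but did by library size alone (14560 to 30707 and 24507 to 43599 CPM). Of the 9 tested arms of the metabolic list, none was DE, beside 9.25% of all miRNAs tested.

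Markers of other cell types were given by lists, and their part in the results was not tested. For smooth muscle, 6 of 8 arms of miR-143 and miR-145 were tested and none was DE, beside 9.25% of all miRNAs tested. The summed level was 147069, 95561 and 159266 CPM in high-altitude hearts and 68693, 73353 and 51980 CPM in low-altitude hearts, against 102134, 20666 and 67991 CPM in high-altitude muscles and 19324, 23334 and 18481 CPM in low-altitude muscles. miR-143-3p made up nearly all of this sum, with a log2 fold change of 1.38 (SE 0.34, adjusted p = 0.0184). It was called DE with library size alone (1.83, without overlap between the tissues), limma voom and without muscle high-altitude replicate 1 (1.64). For endothelium, miR-126-3p had 4700 to 12393 CPM in heart and 3085 to 6662 CPM in muscle (log2 fold change 0.78, adjusted p = 0.049). miR-126-5p went the other way, with 864 to 7671 CPM in heart and 2632 to 8335 CPM in muscle (log2 fold change -0.72, adjusted p = 0.273), and the summed level of the 2 arms ran from 7822 to 13465 CPM in heart and from 6297 to 12599 CPM in muscle.

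For leukocytes, 12 of 13 arms were tested and 1 was DE, miR-146b-5p toward heart, beside 9.25% of all miRNAs tested. miR-150-5p went the other way, with 140 to 335 CPM in heart and 323 to 1215 CPM in muscle, and passed without reaching the minimum for DE (log2 fold change -1.39, adjusted p = 0.0297). The summed level was 4458, 2271 and 3831 CPM in high-altitude hearts, 2830, 2739 and 2157 CPM in low-altitude hearts, 2026, 1817 and 2982 CPM in high-altitude muscles and 1193, 1200 and 1422 CPM in low-altitude muscles, and miR-142-5p was the most abundant member (log2 fold change 1.14, adjusted p = 0.0344), called DE with library size alone (1.52). For fibroblasts and mesenchyme, 15 of 16 arms were tested and 1 was DE, miR-29a-5p toward muscle, beside 9.25% of all miRNAs tested. This arm had only 6 to 31 counts in heart and 45 to 150 in muscle. Without a minimum fold change 1 arm passed toward heart and 2 toward muscle, beside 6.56% and 6.45%. By library size alone miR-29b-3p went the other way, with 160 to 251 CPM in heart and 47.3 to 99.2 CPM in muscle. The summed levels of 6677 to 9491 CPM in heart and 9134 to 18861 CPM in muscle include 4 arms of miR-199b and miR-199c that combine 0 with at least 100 counts. Its most abundant arm, miR-199a-3p, did not differ (log2 fold change -0.45, adjusted p = 0.222). The epithelial list had 11 of 17 arms tested and none DE, beside 9.25% of all miRNAs tested. Its summed level was at most 86.1 CPM, and miR-200c-5p, miR-203-5p, miR-203a-5p and miR-203b-3p were at 0 in all 12 libraries. The liver marker miR-122-5p ranged from 1.4 to 109 CPM, and the erythroid list was listed at 0 in heart high-altitude replicates 1 and 3, in muscle high-altitude replicate 3 and in both tissues of low-altitude replicate 3. In the neuronal list 1 of 6 tested arms was DE toward heart, miR-9-5p, and 1 toward muscle, miR-128-3p, beside 4.19% and 5.05% of all miRNAs tested. miR-124a-5p was at 0 throughout.

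Few or no members of the remaining lists were called DE, beside 9.25% of all miRNAs tested. The let-7 family (15 arms tested) had 1 DE member, let-7e-3p toward heart, whose name alternates between libraries, and let-7g-3p lay higher in every heart library without reaching the minimum for DE (log2 fold change 1.41, adjusted p = 0.00954). The miR-15 and miR-16 family (12), the miR-17-92 and related clusters (23), the miR-26 family (5) and the hypoxia list (2) had none. The most abundant members of these lists were let-7f-5p with an adjusted p of 0.262, miR-16a-5p with 0.519, miR-92a-3p with 0.638, miR-26a-5p with 0.843 and miR-210-3p with 0.982. The last was at 0 in 10 of the 12 libraries.

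The DLK1-DIO3 cluster, a region of imprinted miRNAs active before birth and in muscle regeneration, had 98 listed arms, of which 86 were tested and 10 were at 0 in all 12 libraries. Of the 86, 2 were DE toward muscle (miR-381-3p and miR-376a-3p), beside 5.05% of all miRNAs tested, and none toward heart. The summed level was 3373 to 5836 CPM in the heart libraries and 1852 to 4994 CPM in 5 muscle libraries, but 56947 CPM in muscle low-altitude replicate 3. miR-381-3p had 21360 CPM in that library, against 61.4 to 760 CPM in the other 5 muscle libraries and 14.5 to 37.1 CPM in heart, and by library size alone the tissues overlapped (33.3 CPM in the lowest muscle, 45.7 CPM in the highest heart). Its log2 fold change of -6.01 (SE 1.61, adjusted p = 0.0265) was no longer called without muscle high-altitude replicate 2 (-6.56), without low-altitude heart replicate 1 (-5.20), 2 (-5.35) or 3 (-5.25), or with the goat as a replicate block (-4.38). Without muscle low-altitude replicate 3 the log2 fold change of miR-381-3p shrank to -4.05 and the call was kept. miR-127-3p, the most abundant member, showed the same library at 13626 CPM against 819 to 2554 CPM in the other muscles, and overlapped between the tissues (log2 fold change 0.34, adjusted p = 0.753).

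Whether the difference between heart and muscle depends on altitude was asked with the interaction term. No miRNA (0%) had an adjusted p under 0.05 in edgeR, where 79 were under 0.05 before adjustment. DESeq2 called 13, with 60 under 0.05 before adjustment, and the fit with the goat as a replicate block called 0, with 32. miR-208a-3p had the lowest p for the interaction. High-altitude hearts had 2.16, 3.85 and 2.07 CPM and low-altitude hearts 55.2, 62.1 and 174 CPM of it, and its muscle level was 0.7 to 3.45 CPM. All 3 low-altitude hearts were above all other libraries, and high-altitude hearts overlapped with muscle after TMM scaling but not by library size alone. Over all 12 libraries it was not DE (log2 fold change 3.21, adjusted p = 0.0961), but it was with library size alone (3.68), DESeq2 (3.15), limma voom (4.18), the likelihood ratio test (3.21), miRNAs that combine 0 with at least 100 counts left out (3.24) and without muscle high-altitude replicate 1 (3.81). On the log2 scale, heart differed from muscle by 0.59 among high-altitude goats and by 5.78 among low-altitude goats (adjusted p of the interaction 0.178). miR-499-3p came next, with differences of 0.18 and 3.33 (adjusted p = 0.216), and then miR-4524a-1-5p, with -5.68 and 2.66 (adjusted p = 0.222). miR-208a-3p and miR-499-3p passed (2 calls) with a mean of at least 10 CPM required, with miRNAs that combine 0 and at least 100 counts left out, or without muscle high-altitude replicate 2, and miR-208a-3p also with filterByExpr (1 call). The 13 calls of DESeq2 include miR-208a-3p, miR-499-3p and miR-4524a-1-5p. They also include miR-30c-5p, miR-199c-5p and miR-199c-3p, names that combine 0 with at least 100 counts. miR-4524a-1-5p also passed without muscle high-altitude replicate 3, and miR-30d-3p without heart high-altitude replicate 2 (1 call each). However, miR-30d-3p had 3, 932 and 4 counts in the high-altitude hearts, against 390 to 632 in the other libraries. Without replicate 2, the high-altitude hearts left were those at 3 and 4 counts.

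Taken within each altitude, 48 miRNAs (5.16%) were DE between the tissues at high altitude, 15 higher in heart and 33 higher in muscle, and 77 (8.28%) at low altitude, 36 higher in heart and 41 higher in muscle. The lists shared 36 miRNAs. The high-altitude count was 27 with the goat as a replicate block and fell to 29, 27 and 24 without heart high-altitude replicates 1, 2 and 3, and to 31 and 27 without muscle high-altitude replicates 1 and 3. The low-altitude count fell to 39, 39 and 43 without heart low-altitude replicates 1, 2 and 3 and to 50 without muscle low-altitude replicate 3. Over each library left out in turn, the counts ran from 24 to 49 at high altitude and from 39 to 98 at low altitude. DESeq2 gave 102 at high altitude and 120 at low altitude, arms summed gave 27 and 49, and high altitude fitted alone gave 10. The 2 counts were not tested against each other.

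Some names alternate between libraries, which limits what can be said of their arms. let-7a-5p was at 0 in 5 of the 12 libraries where let-7a-3p had 9869 to 23150 counts, and it had 14990 to 113781 counts in the others. miR-199b-3p and miR-199c-3p were never both above 0. In all, 67 miRNAs combined 0 with at least 100 counts within a tissue and altitude. The sequences listed by the study for members of these names are shown for what their reads are, with the seed (bases 2 to 8) in capitals, written in DNA letters.
let-7a-3p: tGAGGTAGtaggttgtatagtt
miR-199c-3p: aCAGTAGTctgcacattggtt
The first carries the seed common to the let-7 family, which lies on the 5p arm of most of its members. let-7e-3p, called DE toward heart, had 1056 and 802 counts in replicate 1 of the high-altitude and low-altitude hearts, where let-7e-5p was at 0, and 13 to 40 counts in the other 10 libraries. let-7e-3p is thus counted among the 39 higher in heart on 2 libraries, and the sums of the miR-30, fibroblast, epithelial, erythroid, miR-221 and miR-222, and DLK1-DIO3 lists include names that combine 0 with at least 100 counts.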

How the data were processed

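Small RNA libraries of heart and longissimus muscle were grouped by the tissue, altitude and replicate number in their labels. The deposited values are read counts for each mature miRNA, made by the authors with CASAVA 1.8 and Bowtie and not normalised. Of 1391 listed miRNAs, 1005 had a count in the 12 libraries, and 930 with at least 3 counts in at least 1 library were tested. The floor of 3 counts covers counting error only, not variation between goats.

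Fits used edgeR 4.0.16 in R 4.3.3 (TMM, glmQLFit, glmQLFTest) with altitude as a block, and adjusted p values are Benjamini-Hochberg over all miRNAs tested. The values within an altitude and the interaction came from 1 fit over the 4 groups. Composition was tested by exact permutation within altitude, and with the tissue labels exchanged within each goat. The scripts were first tested on simulated counts into which changes had been placed. Of 100 changes of 4-fold, 44 were recovered, and of 100 of 8-fold, 73 were recovered, with 4 unchanged miRNAs called. A miRNA that was not called DE may therefore still differ. Python 3.11.15 with numpy 2.4.6, scipy 1.17.1, pandas 2.3.3 and matplotlib 3.10.9 served for the rest. The alternatives were DESeq2 1.42.0, limma 3.58.1 (voom), edgeR's likelihood ratio test and robust fit, RLE or no scaling, 3 other filters, other fold minima, no altitude term, 1 fit over all 36 libraries, each altitude fitted alone, arms summed, equal counts kept once, miRNAs that combine 0 with at least 100 counts left out, the goat as a replicate block, and each library left out.

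The members and lists were chosen with earlier results of these data known. The 44 miRNAs followed under the alternatives were set by a rule: striated muscle arms with a mean of at least 10 CPM in either tissue, the 5 most abundant of each tissue, in each direction the 8 DE miRNAs with the largest change among those with at least 100 CPM in the higher tissue and no overlap, the most abundant member of each other list, and the 3 with the lowest p for the interaction. Any other miRNA named was chosen after its values were seen.

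Heart and muscle of a goat are paired by the design, in which 6 tissues came from the same goats; that equal replicate numbers mark the same goat is taken from the labels. As a check, deviations from the group means were correlated between heart and muscle of each number. Over 227 miRNAs without a 0 the 6 correlations were 0.16 to 0.38, and 5 of 6 hearts correlated best with their own muscle. Over 261 miRNAs with zeros kept they were -0.37 to 0.11, with 1 of 6 above 0.1, and 1 heart correlated best with its own muscle. Leaving out miRNAs with a 0 was chosen after the data were seen.

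Gene neighbours are names from the RefSeq annotation of assembly ARS1.2, in which 494 of 1033 named mature miRNAs matched a miRNA gene by name. No genome sequence was used. Mature sequences of most miRNAs named are not in the files and were left out.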

Additional observations from a re-analysis of the deposited data

Results flagged for a closer look

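In 98 groups of 6 libraries, the gap of the highest or lowest library to its nearest neighbour was divided by the range of the group, and 7 groups passed the limit for an outlying library, where chance alone picks out about 1 in 20 groups. Levels were log2 of TMM-scaled CPM plus 1. For miR-1-3p, muscle low-altitude replicate 3 was the highest (0.69, and 0.765 by library size alone). For miR-133a-5p, muscle high-altitude replicate 2 was the highest (0.718), but by library size alone the gap was 0.62, no longer past the limit. For miR-490-3p, heart low-altitude replicate 2 was the highest (0.664), but by library size alone the gap was 0.416, no longer past the limit. For miR-378-3p, muscle high-altitude replicate 1 was the highest (0.637), but by library size alone the gap was 0.295, and this library held 2.9% of its counts in miR-378-3p against 2.45% to 4.36% in the other muscles. For miR-210-3p, heart high-altitude replicate 3 (1.0) and muscle high-altitude replicate 2 (1.0) were the only libraries above 0 in their tissue. For the share of the 10 most abundant miRNAs, muscle low-altitude replicate 3 was the lowest (0.66). By library size alone 5 other groups passed the limit, miR-92a-3p (0.811), miR-708-5p (0.68), miR-142-5p (0.655) and miR-128-3p (0.627) in muscle and miR-499-5p (0.711) in heart.

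The difference of heart minus muscle had opposite signs at the 2 altitudes in every goat for miR-486-3p (high minus low altitude, -0.88 on the log2 scale of TMM-scaled CPM plus 1) and for miR-4524a-1-5p (-2.72 on the same scale, where the added 1 shrinks differences at low counts). By library size alone the pattern of miR-486-3p was absent, since heart was higher in 2 of the 3 high-altitude goats. The signs of miR-4524a-1-5p rest on few counts, 1 to 6 in the hearts and 0 to 3 in 4 of the 6 muscles. Both miRNAs were picked by their signs, and the differences were not tested on this scale. The edgeR interaction term did not pass for either (adjusted p = 0.688 and 0.222). DESeq2 and the fit without muscle high-altitude replicate 3 called the interaction of miR-4524a-1-5p.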

How the results depend on the processing

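Of 1089 refits of the 44 miRNAs followed, 1039 kept their direction and side of the threshold, 8 lost a call, 23 gained one and 19 changed sign. None of the 19 DE miRNAs among them changed sign, and 2 lost the call somewhere, miR-27b-3p and miR-381-3p. The goat as a replicate block gave 76 DE miRNAs, with 17 of the 86 lost and 7 gained, and 27 at high altitude, ended the call of miR-381-3p, and changed no other call among those followed. The other lost calls belonged to miRNAs that were not followed, and these are not named here. Fewer miRNAs were tested with a mean of at least 10 CPM, which gave 49 DE miRNAs (21 higher in heart, 28 in muscle), and with arms summed, which gave 52 (19 higher in heart), 27 at high altitude and 49 at low altitude. With library size alone 65 were higher in heart, and with no minimum fold change 61 were. DESeq2 gave 102 at high altitude, 120 at low altitude and 13 for the interaction, and high altitude fitted alone gave 10, from fewer libraries. The interaction gave 1 with filterByExpr, 2 with a mean of at least 10 CPM and 2 without miRNAs that combine 0 with at least 100 counts. With equal counts kept once, the difference in detected miRNAs was -1.5, and it was 5.83 with arms summed, 8.83 at a limit of 10 CPM and 14.8 at a limit of 0.5 CPM.

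Leaving out each library in turn gave 71 to 94 DE miRNAs, 27 to 44 higher in heart, 44 to 50 higher in muscle, 0 to 2 for the interaction, 24 to 49 at high altitude, 39 to 98 at low altitude, and differences of -11.4 to -9.59 and -9.48 to -7.59 points in the shares of the 10 most abundant and the most abundant miRNAs and of 0.333 to 11.8 in detected miRNAs.

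Fold changes that changed sign belonged to miRNAs that were not DE. With library size alone these were miR-486-3p (0.31), miR-26a-5p (0.34), miR-16a-5p (0.11) and miR-92a-3p (0.09), and with limma voom miR-144-3p (-0.25). miR-210-3p was -0.04 with no filter, -0.02 with the goat as a replicate block, -0.58 with arms summed and -0.11 with limma voom, and ran from -5.36 to 4.95 when a library was left out. By the same leaving out, miR-1-3p ran from -1.34 to 1.30, miR-486-3p from -0.20 to 0.09, miR-26a-5p from -0.28 to 0.09 and miR-127-3p from -0.03 to 1.12. DESeq2 gave no adjusted p for miR-1-3p, miR-133a-5p, miR-210-3p and miR-381-3p, and a filter or the removal of equal counts or of zeros left out miR-133b-5p, miR-144-3p, miR-200a-3p, miR-210-3p and miR-4524a-1-5p. Where no cause is given, the cause was not tested.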
